A study of Mus musculus with 12 samples.

Results

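The genes of the MYC and MAX network were taken by name from the tables of all 12 libraries, 10 of the 25759 genes listed in each. They were the MYC paralogs Myc, Mycn and Mycl, their partner Max, the MXD family genes Mxd1, Mxd3, Mxd4 and Mxi1, and the MAX partners Mnt and Mga. The cells were mouse HATX3 ESCs, a line from haploid embryos that had become diploid in culture and in which doxycycline turns on Xist. Parental wild-type cells (WT in the labels, numbers 1, 2 and 3) and ΔCdk8 cells (Cdk8-/-, clones 8, 11 and 15) were each sampled uninduced and after 48 h of Xist expression, which gave 4 groups of 3 libraries. All 12 libraries carried the same Xist system, with a tetO promoter driven by rtTA from Rosa26. Each ΔCdk8 library came from 1 clone with a small deletion around the Cdk8 start codon, and whether the wild-type numbers were separate cultures is not stated, so p-values measure the spread between these libraries.

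Proteins of this network pair through a helix-loop-helix leucine zipper and bind the E-box CACGTG. MYC, MYCN and MYCL need MAX as a partner to bind DNA and recruit coactivators, and in ESCs MYC and MYCN are known for driving growth, ribosome production and self-renewal. MXD proteins and MNT compete for MAX and recruit SIN3 and histone deacetylases, whereas MGA joins MAX and PCGF6 in a Polycomb complex that keeps germline genes silent in ESCs.

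RefSeq promoter windows (GRCm38.p6) matched 9 of the 10 genes at 11 start sites. In the 250 bases upstream, the E-box CACGTG, which reads the same on both strands, was found once for Mnt, 123 bases before the start, and once for Mxd4, 219 bases before it. It was found at 0 of the other 9 start sites. Over all 11 start sites its share was thus above the 6.02% of 32851 promoters of the same length, though on few windows. Neither TTCNNNGAA (the STAT motif, 7.02% of all promoters) nor CTTTGAT (the TCF motif, 3.21%) was found on either strand of the 11 windows. Those of Mycn and Mxi1, the genes furthest below and above wild type in the mean of the ΔCdk8 clones, are shown beside both windows with an E-box, which is in capitals. Bases that the authors' annotation places within the gene are left off. The Mycn stretch lies at chr12:12941915-12942086 on the reverse strand, that of Mxi1 at chr19:53310256-53310505 on the forward strand, that of Mnt at chr11:74830674-74830919 on the forward strand and that of Mxd4 at chr5:34187721-34187960 on the reverse strand.
Mycn: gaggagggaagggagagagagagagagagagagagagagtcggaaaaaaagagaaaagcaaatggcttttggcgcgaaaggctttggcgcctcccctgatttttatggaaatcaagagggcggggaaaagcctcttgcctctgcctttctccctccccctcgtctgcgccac
Mxi1: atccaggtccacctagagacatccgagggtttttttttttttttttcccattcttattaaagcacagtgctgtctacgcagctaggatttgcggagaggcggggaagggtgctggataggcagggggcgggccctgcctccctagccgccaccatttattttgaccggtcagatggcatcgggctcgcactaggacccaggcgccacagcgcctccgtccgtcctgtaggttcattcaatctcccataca
Mnt: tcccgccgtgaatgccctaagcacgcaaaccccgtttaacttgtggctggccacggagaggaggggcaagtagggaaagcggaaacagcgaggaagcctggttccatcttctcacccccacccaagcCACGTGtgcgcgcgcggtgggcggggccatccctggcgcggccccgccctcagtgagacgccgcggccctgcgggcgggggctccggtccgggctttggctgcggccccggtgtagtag
Mxd4: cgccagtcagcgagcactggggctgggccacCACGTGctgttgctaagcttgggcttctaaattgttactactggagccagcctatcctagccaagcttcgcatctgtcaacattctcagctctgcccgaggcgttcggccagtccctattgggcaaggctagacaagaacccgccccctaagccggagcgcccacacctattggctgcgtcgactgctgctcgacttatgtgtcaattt

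Levels were first compared within uninduced wild-type cells, in TPM, the share of transcripts that the authors computed per exon length so that genes can be ordered. Mycn was the highest with 164±56.3 TPM (mean±s.d., n = 3), followed by Max (76.8±1.33), Myc (59.9±2.81), Mga (45.2±9.17) and Mnt (18.5±5.89), and the ranges of these 5 neighbours did not overlap. Mycl (10.2±1.12), Mxd3 (8.80±2.62) and Mxi1 (7.66±2.79) followed, each overlapping the next. Mxd1 (3.30±0.363) and Mxd4 (2.95±0.485) were the lowest and overlapped each other. The 4 MXD genes together reached 22.7±3.39 TPM, against 234±59.5 TPM for the 3 MYC paralogs. All exon reads of the members were uniquely mapped, between 73 and 14489 per gene and library.

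**Figure D1:**
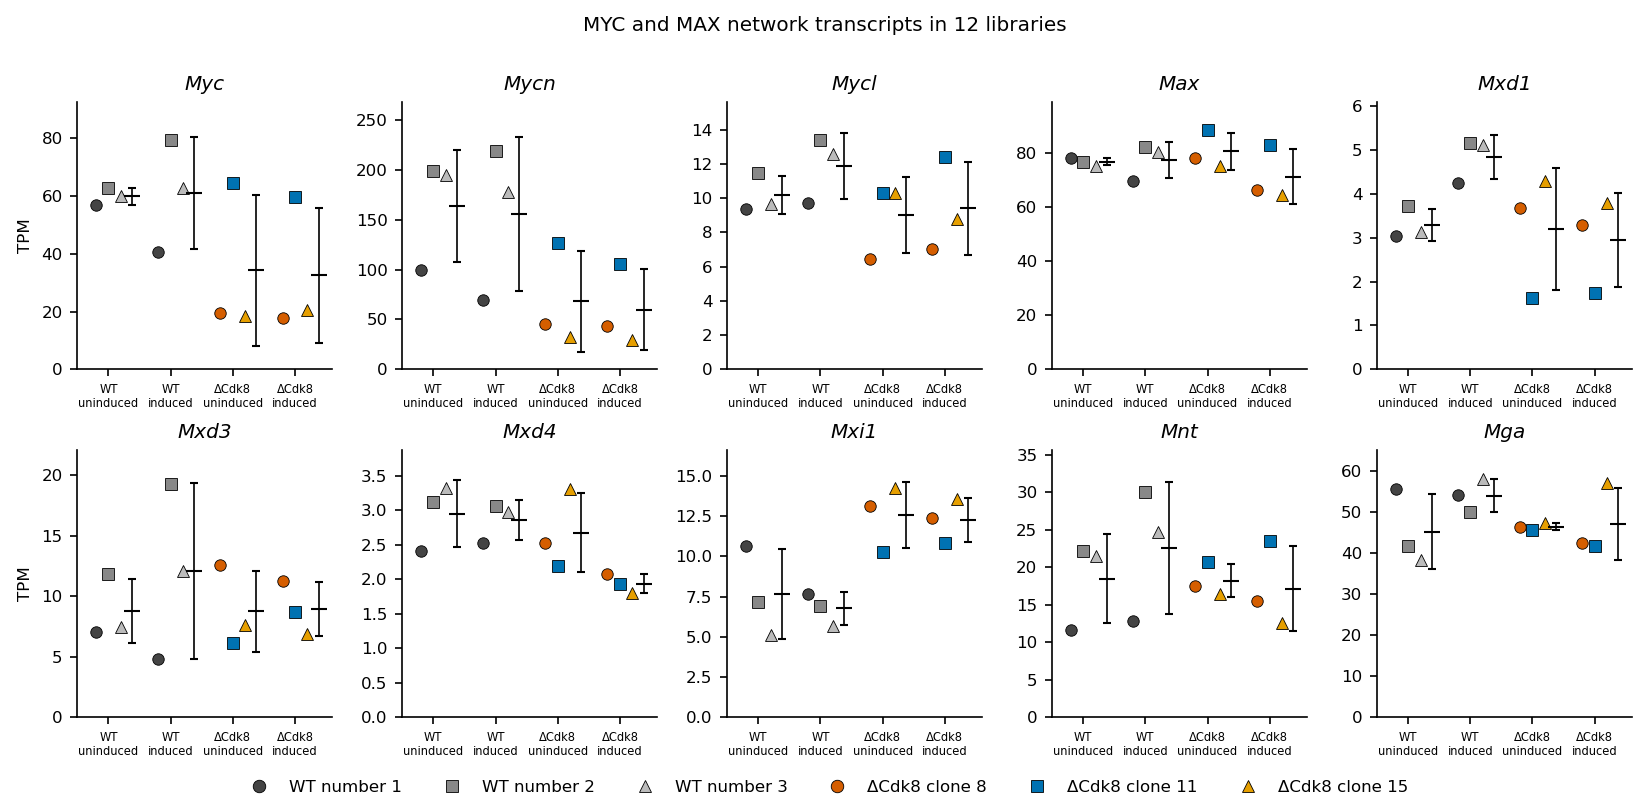
TPM of the 10 genes (linear axes from 0) in wild-type (WT) and ΔCdk8 libraries, uninduced and induced, with 1 point per library and the mean and s.d. of each group (n = 3) to its right. Clone 11 stands with wild type for Myc, while clones 8 and 15 lie at or below 20.4 TPM in both states, and clone 11 has the lowest Mxd1 values.

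Exon reads per library ranged from 20872956 to 56457625. Reads inside and outside the deleted stretch of Cdk8 were not counted apart, and Cdk8 had 51.5 to 74.2 TPM in wild-type and 33.4 to 85.3 TPM in ΔCdk8 libraries, so its level does not check the labels. In the test of differences between clones, 73.9% of 14129 genes were called (Benjamini-Hochberg adjusted p under 0.05 in the quasi-likelihood test of edgeR, with the uninduced and induced library of a clone as its 2 libraries). In the same test between wild-type numbers 19.1% of 13342 genes were called. ESC markers summed to between 2188 and 3698 TPM, and all 8 were above 1 TPM in every library. Single markers differed between uninduced genotypes: DESeq2 called the ESC markers Tfcp2l1 (10.01 to 39.4 TPM in wild type and 76.7 to 102 TPM in the clones) and Nanog (50.2 to 157 and 192 to 403 TPM), Eomes and Gata4 as higher and Sox1 as lower in ΔCdk8 cells, and edgeR called none of them. Summed trophoblast markers reached 11.2 to 34.8 TPM in uninduced wild-type and 19.6 to 61.4 TPM in uninduced ΔCdk8 cells (11.5 to 39.2 and 24.2 to 52.2 TPM in induced cells), mostly from Tfap2c, and the defining Cdx2 was at or below 1.41 TPM throughout. Of the 5 fibroblast markers, Thy1 held most of 8.66 to 17.6 and 19.7 to 29.3 TPM in uninduced cells (5.54 to 15.2 and 21.3 to 32.3 TPM in induced cells), Col3a1 was at or below 0.156 TPM, and Col1a1 and Col1a2 were highest in clone 15 (3.36 and 3.67 TPM uninduced). Mesoderm markers summed to 2.39 to 5.08 and 5.05 to 14.7 TPM in uninduced cells, those of primitive endoderm and neural cells to at most 41.4 TPM, and Neurog2 was at 0 in 11 of 12 libraries. In uninduced clones 8, 11 and 15 the trophoblast markers summed to 61.4, 19.6 and 44.8 TPM. Mesoderm markers had 14.7, 5.05 and 10.4 TPM there, and Pou5f1 1126, 1779 and 713 TPM. For these, clones 8 and 15 lay on the same side of clone 11, as they did for Myc below. Primitive endoderm markers had 5.68, 11.4 and 10.9 TPM, with clone 15 close to clone 11. The part of all these markers in the results was not tested.

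Whether loss of Cdk8 alone shifted the network was asked in uninduced cells. Myc, the broadly used MYC paralog, had 57.0, 62.7 and 59.9 TPM in wild-type numbers 1, 2 and 3 and 19.7, 64.4 and 18.6 TPM in clones 8, 11 and 15. Clones 8 and 15 lay below all wild-type libraries and clone 11 lay just above them. As for every bulk value here, fewer cells with the transcript and less of it per cell cannot be told apart. Mycn, the paralog typical of embryonic cells, had 99.3, 199 and 195 TPM in wild type and 45.4, 127 and 32.5 TPM in the clones. All values of clones 8 and 15 were again below wild type, and clone 11 lay between wild-type number 1 and the other two. Mycl had 9.39, 11.5 and 9.68 TPM in wild type and 6.43, 10.3 and 10.3 TPM in the clones, with only clone 8 outside the wild-type range.

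Across the 3 clones the log2 fold change against wild type was −1.34 (SE 0.58) for Mycn, −0.88 (SE 0.52) for Myc and −0.31 (SE 0.26) for Mycl. Their adjusted p-values were 0.248, 0.353 and 0.488 (edgeR's quasi-likelihood test), and 8.49% and 18.2% of all genes had a shift at least as large as Mycn and Myc. Of the 10 members 0 were called, 0 had an unadjusted p under 0.05, and their median was −0.19 against 0.02 over all genes. Over all 13961 genes tested 0 (0%) were called and 2821 had an unadjusted p under 0.05. DESeq2 called 8.53% of the same genes and 0 members, with 1 member, Mycn, at an unadjusted p under 0.05 (adjusted p = 0.0925). Clone 11 decided this: without it, Myc (log2 fold change −1.87, SE 0.15, adjusted p = 0.0192 from edgeR) and Mycn (−2.29, SE 0.37, adjusted p = 0.0311 from edgeR) both fell, 2 of 10 members against 11.3% of 14294 genes. Without clone 8 or clone 15 the values moved the other way, to −0.58 and −0.55 for Myc (edgeR adjusted p = 0.657 and 0.615) and −1.09 and −0.97 for Mycn (edgeR adjusted p = 0.540 and 0.444). Mycl had −0.10 without clone 8 and −0.52 without clone 11 (edgeR adjusted p = 0.857 and 0.179).

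The clones were then compared with each other, a comparison added after the values were seen. The uninduced and induced libraries of a clone stood as its replicates, so these p-values measure the spread within clones only. Of the 10 members 7 differed between clones, close to the 73.9% of all genes, which is a share near the background. Shifts as large as those of Myc and Mycn were less common. Myc was lower than in clone 11 by a log2 difference of −1.86 (SE 0.11) in clone 8 and −1.92 (SE 0.11) in clone 15 (edgeR adjusted p = 5.97e-10 and 4.65e-10), shifts reached by 6.19% and 5.9% of genes. For Mycn the differences from clone 11 were −1.52 (SE 0.10) in clone 8 and −2.15 (SE 0.10) in clone 15 (edgeR adjusted p = 1.5e-09 and 4.13e-11), reached by 9.5% and 4.52% of genes. Between clones 8 and 15 Myc differed by 0.06 (SE 0.11, edgeR adjusted p = 0.684), and Mycn was higher in clone 8 by 0.63 (SE 0.10, edgeR adjusted p = 9.62e-05). Mycl was lower than in clone 11 in clone 8 (−0.87, SE 0.15) and in clone 15 (−0.49, SE 0.15), with edgeR adjusted p-values of 7.74e-05 and 0.00874. Clones 11 and 15 both had 10.3 TPM of Mycl uninduced, and in TPM only their induced libraries stood apart, with 12.4 and 8.77 TPM. The edgeR differences are scaled otherwise than TPM. Over all expressed genes the median log2 TPM ratio to wild type was −0.03 in uninduced clone 11 and 0.20 in uninduced clone 15. The background of these pairs was high. Called were 7 of the 10 members for clone 8 against 11, 6 for clone 15 against 11 and 3 for clone 8 against 15, with 57.4% of genes called for clone 8 against 11, 59.5% for clone 15 against 11 and 40.2% for clone 8 against 15. Myc, Mycn and Mycl were called in the first and second of these pairs, and Mycn and Mycl in the third, where Mycl had a difference of −0.39 (SE 0.15, edgeR adjusted p = 0.0459).

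**Figure D2:**
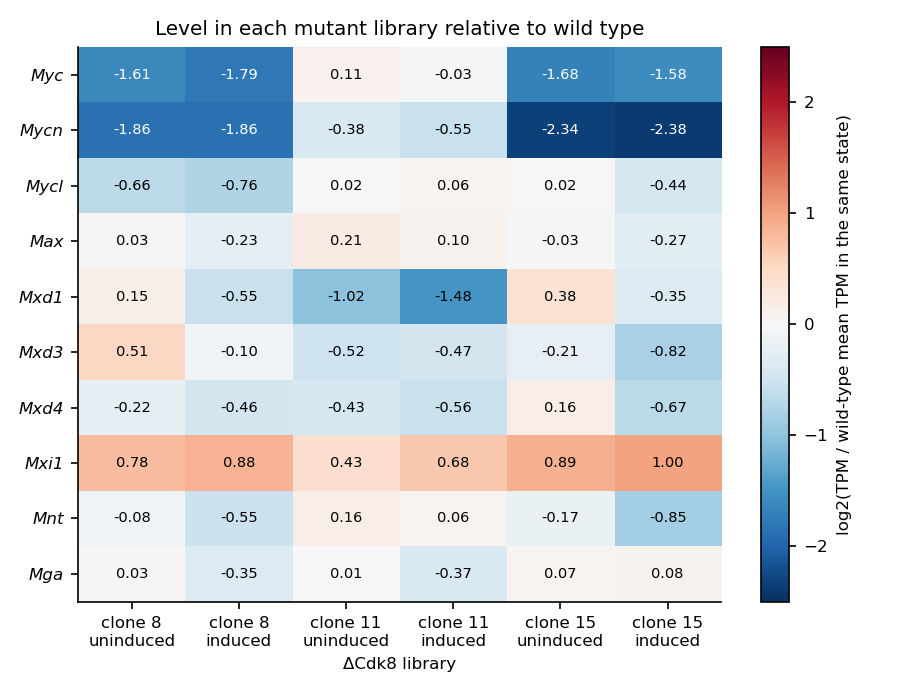
Log2 ratio of TPM in each ΔCdk8 library to the wild-type mean in the same state, with genes in rows and libraries in columns. Myc and Mycn are between −1.58 and −2.38 in clones 8 and 15 and between 0.11 and −0.55 in clone 11, and Mxi1 is above 0 in all 6 libraries.

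Most genes around Myc and Mycn did not share their shift. Within 5 Mb of Myc, on chromosome 15 (61985391 to 61990374, forward strand, GRCm38), 23 expressed genes had a median log2 ratio to wild type of 0.02, −0.13 and 0.28 in clones 8, 11 and 15, against 0.13, −0.03 and 0.20 over all genes, and 0% of them were as low as Myc in clones 8 and 15. Within 5 Mb of Mycn, on chromosome 12 (12936093 to 12941914, reverse strand), 27 genes had medians of −0.18, −0.10 and 0.06, in clone 8 a difference of −0.31 from the median of all genes, and 3.70% and 0% were as low as Mycn in clones 8 and 15. Intron reads of Mycn, as RPM scaled to the exon reads of the library, followed its exon reads. They stood at 10.4, 9.71 and 4.83 RPM in uninduced wild-type numbers 2, 3 and 1, and 2.36 (95% exact Poisson interval 1.97 to 2.80, counting error only), 7.40 (6.62 to 8.26) and 1.49 (1.14 to 1.91) in clones 8, 11 and 15. For Myc only 18 to 73 intron reads per library were counted, which gave 0.899 to 1.72 RPM in uninduced wild type, 0.798 (0.580 to 1.07) in clone 8, 1.41 (1.08 to 1.81) in clone 11 and 0.489 (0.298 to 0.755) in clone 15.

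In uninduced cells the MYC paralogs together amounted to 166, 273 and 264 TPM in wild-type numbers 1, 2 and 3, and to 71.5, 201 and 61.4 TPM in clones 8, 11 and 15. Clones 8 and 15 thus lay below Max itself, which had 78.2 and 75.3 TPM there, whereas in uninduced wild type the paralog sum was 2.12 to 3.55 times Max. In induced libraries it was 1.02, 2.15 and 0.914 times Max in clones 8, 11 and 15 and 1.72 to 3.8 times in wild type. Mycn held 59.9% to 73.7% of the sum in uninduced wild-type and 52.9% to 63.5% in uninduced ΔCdk8 libraries. The sum of the MXD genes, 31.9, 20.3 and 29.5 TPM in clones 8, 11 and 15, was 0.447, 0.101 and 0.479 times that of the MYC paralogs, against 0.0723 to 0.140 times in wild type. These sums are of transcripts, and protein levels were not measured.

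**Figure D3:**
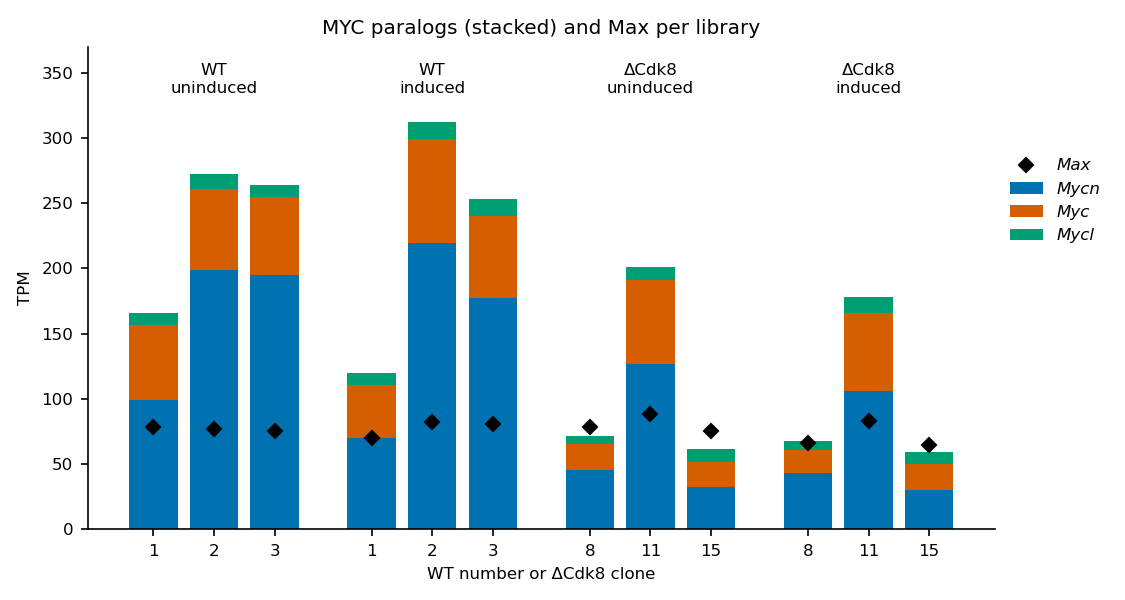
Stacked TPM of Mycn, Myc and Mycl (bars from 0) and TPM of Max (diamonds) in each of the 12 libraries, labelled by wild-type number or ΔCdk8 clone. Bars reach 120 to 312 TPM in wild type, 178 and 201 TPM in clone 11 and 59.0 to 71.5 TPM in clones 8 and 15, while Max stays between 64.5 and 88.6 TPM.

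Max, the shared partner, was the steadiest member in uninduced wild type, with 78.1, 76.9 and 75.4 TPM, and had 78.2, 88.6 and 75.3 TPM in clones 8, 11 and 15. Its log2 fold change between genotypes was −0.06 (SE 0.16, edgeR adjusted p = 0.840), and 0.01 when intron reads were counted too. The sign depends on the scaling, since mean TPM was higher in the clones (80.7 against 76.8 TPM). Between clones it was lower than in clone 11 in clone 8 (−0.38, SE 0.09) and in clone 15 (−0.55, SE 0.09), with edgeR adjusted p-values of 0.00247 and 8.86e-05. Its intron reads went the other way, with 14.8 RPM in clone 8 (95% exact Poisson interval 13.8 to 15.8) and 9.55 (8.63 to 10.5) in clone 15 against 7.06 (6.29 to 7.90) in clone 11 and 4.41 to 7.26 in uninduced wild type. In the induced libraries of the same clones they were 19.3, 15.9 and 6.71 RPM for clones 8, 15 and 11, against 9.03, 7.19 and 7.61 RPM in induced wild type, whose highest library came close to uninduced clone 15. Introns made up 18.5% and 13.6% of the Max reads in uninduced clones 8 and 15 and 25.5% and 23.4% in the induced ones, against 6.45% to 13.2% in wild type, where the highest share was that of induced number 1. Over all genes introns made up 6.87% and 5.73% of reads in uninduced clones 8 and 15 and 7.59% and 7.25% in the induced ones. Clone 11 had 5.39% uninduced and 5.38% induced, and wild type 4.77% to 6.59%. Mxd4 also had a higher share, 19.6% and 15.9% in uninduced clones 8 and 15, against 7.34% to 10.5% in wild type. The part of Max transcripts that its intron reads come from was not tested.

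Among the MAX-bound repressors, Mxi1 was the member furthest above wild type. It had 10.7, 7.18 and 5.14 TPM in wild-type numbers 1, 2 and 3 and 13.2, 10.3 and 14.2 TPM in clones 8, 11 and 15, so that only clone 11 lay within the wild-type range, just below number 1. Its log2 fold change was 0.56 (SE 0.28, edgeR adjusted p = 0.286), 0.88 without wild-type number 1 (SE 0.23, edgeR adjusted p = 0.0855) and 0.34 without number 3 (SE 0.26, edgeR adjusted p = 0.637), and did not pass the threshold under any alternative. In induced cells the groups did not overlap, with 5.71 to 7.69 TPM in wild type and 10.8 to 13.5 TPM in the clones. Unlike Myc and Mycn, Mxi1 gave no call between clones (edgeR adjusted p = 0.379).

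Mxd1, a repressor linked to differentiation, was set apart by clone 11. Uninduced, it had 3.04, 3.72 and 3.14 TPM in wild type and 3.67, 1.63 and 4.31 TPM in clones 8, 11 and 15. Clone 11 was the lowest library, below both other clones by a log2 difference of 0.93 (SE 0.19) for clone 8 and 1.02 (SE 0.19) for clone 15, with edgeR adjusted p-values of 0.000417 and 0.000175. Here the surroundings moved as well. The 536 expressed genes of chromosome 6, which carries Mxd1, had a median log2 ratio to wild type of −0.58 in clone 11, against −0.03 over all genes, and 90 genes within 5 Mb of Mxd1 had −0.51. Clone 11 Mxd1 stood at −1.02 without the 0.1 TPM that was added for these medians. With it, 3.33% of the 90 genes were as low as Mxd1. On the chromosomes of the other 9 members the median in clone 11 was between −0.05 and 0. DNA copy number was not measured.

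Mxd3, expressed in cycling cells, had 7.10, 11.8 and 7.49 TPM in wild type and 12.6, 6.15 and 7.62 TPM in the clones, with overlapping groups (log2 fold change −0.16, SE 0.38, edgeR adjusted p = 0.820). Clone 8 had more of it than clone 11 (0.57, SE 0.21, edgeR adjusted p = 0.0259) and than clone 15 (0.84, SE 0.21, edgeR adjusted p = 0.00446). The span of Mxd3 shares 105 bp with Prelid1 on the opposite strand, which had up to 224 TPM, and whether the counting used strand is not given in the sources used here, so its values are uncertain. Mxd4 had 2.41 to 3.33 TPM in wild type and 2.19 to 3.31 TPM in the clones (log2 fold change −0.30, SE 0.29, edgeR adjusted p = 0.540).

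Mnt, the most widely expressed MAX-bound repressor, had 11.7, 22.2 and 21.6 TPM in wild-type numbers 1, 2 and 3 and 17.5, 20.7 and 16.4 TPM in the clones, all clones within the wild-type range (log2 fold change −0.15, SE 0.29, edgeR adjusted p = 0.768). It was lower in clone 8 than in clone 11 by −0.55 (SE 0.12) and in clone 15 by −0.86 (SE 0.13), with edgeR adjusted p-values of 0.00105 and 1.59e-05. Mnt and Mycn were also the 2 members called between wild-type numbers, against 19.1% of all genes (edgeR adjusted p = 0.00965 and 0.0130). Number 1 had the lowest value of both genes in both states, for Mnt 11.7 and 12.9 TPM against 21.6 to 30.0 TPM in numbers 2 and 3.

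Mga, the scaffold of the complex with PCGF6, had 55.6, 41.7 and 38.3 TPM in wild type and 46.3, 45.7 and 47.4 TPM in the clones, where its s.d. was 0.860 TPM (log2 fold change −0.10, SE 0.17, edgeR adjusted p = 0.736). Here too the sign depends on the scaling, since mean TPM was 46.4 in the clones against 45.2 in wild type. Its 10 complex partners had a median log2 fold change of −0.21 against 0.02 over all genes, 0 of them were called by edgeR, and Cbx3, a chromobox protein that reads methylated histone H3, had the largest shift (−0.60, SE 0.18, edgeR adjusted p = 0.175) and was the 1 of 10 called by DESeq2 (adjusted p = 0.0459), a share near the 8.53% of all genes. Cbx3, like Stra8, lies on chromosome 6. For germline genes that the complex binds the median log2 fold change was 1.24, and 11 of 12 had an unadjusted p under 0.05, against 2821 of 13961 genes. None of them passed the adjusted threshold in edgeR, while DESeq2 called 9 of 12 as higher in ΔCdk8 cells, against 734 of all 13961 genes. Smc1b, a meiotic cohesin subunit, had 2.86, 1.27 and 0.55 TPM in wild type and 28.3, 1.48 and 50.2 TPM in clones 8, 11 and 15 (log2 fold change 3.88, SE 1.13, edgeR adjusted p = 0.168). Stra8, a gatekeeper of meiosis, had 0.43 to 3.8 TPM in wild type and 8.56, 4.68 and 26.6 TPM in the clones. Slc25a31, a testis ADP/ATP carrier, had 1.11 to 1.66 TPM in wild type and 8.25, 1.91 and 8.48 TPM in the clones, and Tex101, a germ cell surface protein, had 0.52 to 0.57 TPM and 2.09, 1.65 and 1.61 TPM. Over the 11 germline genes expressed in uninduced wild type, clones 8, 11 and 15 had median log2 ratios of 1.40, 0.57 and 1.5 to wild type. In both clone 8 and clone 15, 0 of the 11 were below wild type, and in clone 11 there were 2. In induced wild-type number 1 the same genes had a median of 1.04 relative to the other two induced wild-type libraries.

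The genes that MYC acts on were read from lists chosen with earlier results of these data known. Of 40 genes activated by MYC, mostly for ribosome production, nucleotide synthesis and metabolism, 0 were called by edgeR in uninduced cells and 16 had an unadjusted p under 0.05, against 2821 of all 13961 genes. Their median log2 fold change was −0.43 against 0.02 over all genes. The largest edgeR shift in the list went the other way, with Ccnd2 higher in ΔCdk8 cells (edgeR adjusted p = 0.543). Ccnd2 had 5.23, 1.44 and 3.21 TPM in wild-type numbers 1, 2 and 3 and 0.996, 18.3 and 2.32 TPM in clones 8, 11 and 15. Clone 11 thus lay above wild type, clone 8 below it and clone 15 within its range. DESeq2 called 4 of the 40, a share near the 8.53% of all genes, and all were lower, namely Nme1 (−0.79), Phb2 (−0.70), Odc1 (−0.54) and Rcl1 (−0.51), of which Odc1 encodes the enzyme that starts polyamine synthesis. Below the wild-type mean lay 34, 30 and 34 of the 40 in clones 8, 11 and 15, with median log2 ratios of −0.44, −0.10 and −0.37 against 0.13, −0.03 and 0.20 over all genes. Wild-type number 1, set against the other two, also had −0.10, with 28 of the 40 below them, so that clone 11 sat at the level of a wild-type library. By name, Odc1 had 1574 to 1697 TPM in wild type and 1263, 1320 and 1124 TPM in the clones, and Phb2, a mitochondrial prohibitin, had 732 to 894 TPM and 623, 508 and 566 TPM. Phb2 lies on chromosome 6, whose median was lower in clone 11.

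Of the 8 genes repressed by MYC 0 were called by edgeR, and their median log2 fold change was 0.44. Cdkn1a, the cell cycle inhibitor p21, went against that median, with 28.4, 35.1 and 47.4 TPM in wild type and 1.80, 12.1 and 1.45 TPM in clones 8, 11 and 15 (log2 fold change −2.90, SE 0.86, edgeR adjusted p = 0.172, DESeq2 adjusted p = 0.00378). DESeq2 called 2 of the 8 against 8.53% of all genes, Cdkn1a as lower and, as higher, Ndrg2, a growth-restraining protein, with 7.99 to 13.4 TPM in wild type and 22.6, 17.9 and 34.6 TPM in the clones (DESeq2 log2 fold change 1.11, SE 0.31, adjusted p = 0.00864). Uninduced wild-type number 1 shared the higher level of this list, with a median log2 ratio of 1.11 to the other two wild-type libraries, against 0.99, 0.22 and 0.90 in clones 8, 11 and 15.

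**Figure D4:**
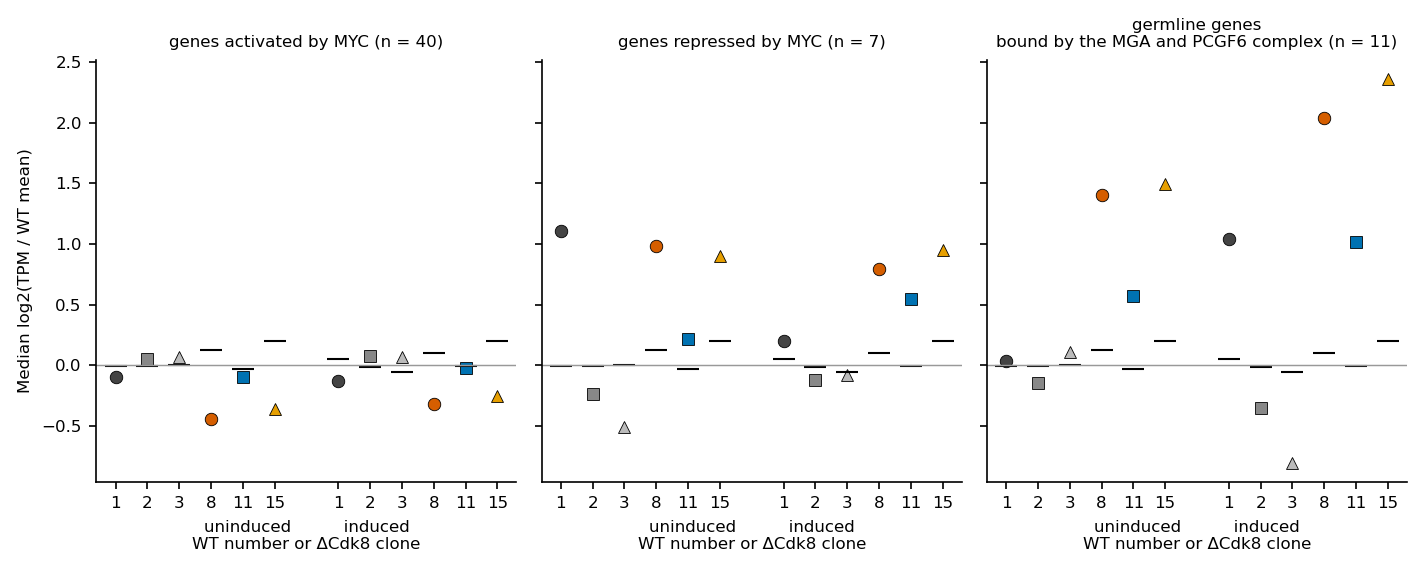
Median log2 ratio of TPM to the wild-type mean over genes activated by MYC, genes repressed by MYC and germline genes bound by the MGA and PCGF6 complex, per library, with the median of all expressed genes as a bar; each wild-type library is set against the other two of its state. Clones 8 and 15 lie lowest in the first panel (−0.44 and −0.37 uninduced) and highest in the third (1.40 and 1.5 uninduced), while uninduced clone 11 (−0.10) sits at wild-type number 1 (−0.10) in the first panel and at 0.57 in the third.

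Cofactors and regulators of the network gave 0 edgeR calls in uninduced cells in any of the other lists. The median log2 fold change was 0.15 for the 3 genes of the MLX arm, −0.06 for 10 corepressors, −0.16 for 12 coactivators and partners of MYC, −0.23 for 13 genes of MYC protein turnover and −0.19 for 8 LIF and Wnt regulators of Myc, and Bmyc, the 1 of 2 Myc-like gene copies tested, had −0.22. The largest shifts were those of Mlxip, a sensor of glucose (0.29), Suds3, a SIN3 subunit (−0.44), Zbtb17, the MYC partner MIZ1 (−0.73), Usp28, a deubiquitinase that stabilises MYC (−0.74), and Lef1, a Wnt effector (−2.93). Lef1 had 31.4, 68.4 and 47.6 TPM in wild type and 1.64, 14.7 and 3.94 TPM in clones 8, 11 and 15, with clone 11 the highest of the clones. Its list did not share this order. Over the 8 LIF and Wnt regulators the median log2 ratios to wild type were 0.06, −0.16 and −0.03 in clones 8, 11 and 15. Below wild type lay 3, 7 and 5 of the 8. DESeq2 called Lef1, Usp28 and Ruvbl1, a coactivator ATPase, 1 of 8, 1 of 13 and 1 of 12 genes of their lists and so near the 8.53% of all genes, with adjusted p-values of 0.0364, 0.0203 and 0.0203, and Ruvbl1 (−0.43) lies on chromosome 6, whose median was lower in clone 11.

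Induction of Xist in wild-type cells, the process the cells were built to study, was examined next. Mxd1 was the member that moved most evenly. It went from 3.04 to 4.26 TPM in number 1, from 3.72 to 5.17 TPM in number 2 and from 3.14 to 5.11 TPM in number 3, and the induced and uninduced libraries did not overlap. Its log2 fold change was 0.60 (SE 0.20, edgeR adjusted p = 0.157), and 0 of 10 members were called against 4.26% of 13342 genes; 1 member, Mxd1, had an unadjusted p under 0.05. With the replicate number as a block the value was 0.60 (SE 0.15, edgeR adjusted p = 0.0377), so that 1 member rose against 23.2% of genes, and DESeq2 without a block also called it (adjusted p = 0.0435), 1 member against 12.8% of genes. A shift of this size was reached by 22.4% of genes. Without number 1 Mxd1 (0.62, edgeR adjusted p = 0.0452) and Mga (0.47, SE 0.10, edgeR adjusted p = 0.0206) were called, 2 members against 24.8% of 13538 genes, and without number 2 or number 3 edgeR called 0 members and 0 genes (1242 and 1120 genes at an unadjusted p under 0.05).

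The other members showed smaller or uneven values on induction in wild type. Mga went from 55.6, 41.7 and 38.3 to 54.1, 50.0 and 58.0 TPM in numbers 1, 2 and 3 (log2 fold change 0.30, SE 0.16, edgeR adjusted p = 0.354). Myc went to 40.7, 79.5 and 62.9 TPM and Mycn to 69.8, 220 and 178 TPM, with number 1 lower and number 2 higher than uninduced for both genes. Their log2 fold changes were 0.07 (SE 0.25) and −0.03 (SE 0.45), with edgeR adjusted p-values of 0.906 and 0.983. Mnt was higher after induction in all 3 pairs, by 1.1, 1.35 and 1.15 times, and had 0.30 (SE 0.10) with the block (edgeR adjusted p = 0.0761). Mycl was likewise higher in all 3 pairs, by 1.04, 1.17 and 1.30 times. Mxd3 went to 0.679, 1.63 and 1.62 times its uninduced level, and Max, Mxd4 and Mxi1 had log2 fold changes of 0.06, −0.01 and −0.14.

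Among partner genes in induced wild-type cells, edgeR called Rbbp7, a histone-binding SIN3 subunit on the X chromosome (−1.40, SE 0.25, adjusted p = 0.0310), Fbxw7, the ubiquitin ligase subunit that degrades MYC (0.77, SE 0.13, adjusted p = 0.0282), and Ldha, lactate dehydrogenase (−0.79, SE 0.15, adjusted p = 0.0364). Fbxw7 rose from 16.5, 14.9 and 16.4 TPM to 31.4, 22.9 and 25.4 TPM, and Ldha fell from 2381, 2283 and 2249 TPM to 1052, 1371 and 1447 TPM. Of the genes repressed by MYC, Cdkn1a rose (1.20, SE 0.19, edgeR adjusted p = 0.0220) and the related inhibitor Cdkn1c fell (−1.15, SE 0.21, edgeR adjusted p = 0.0310). These were 1 of 10 corepressors, 1 of 13 turnover genes, 1 of 40 activated and 2 of 8 repressed genes, beside 4.26% of all genes. In the remaining lists 0 were called, and the largest values were those of Mlxipl (0.38), Bmyc (−0.01), Yaf2 (−0.87), Sycp3 (−0.99), Zbtb17 (0.50) and Lef1 (−2.62). With the block, in which 23.2% of all genes were called, edgeR called 10 of the 40 activated genes, a share near that background, with 9 lower and 1 higher at a list median of −0.13. The largest of these were Ccnd2 (−1.69), Ldha (−0.81), Srm (−0.41) and Hspd1 (−0.36). Of the 8 LIF and Wnt regulators it called 4, namely Lef1 (−2.84, adjusted p = 0.0052), Stat3 (0.48), Lifr (0.43) and Tcf7l1 (0.32). It called 3 of 13 turnover genes, namely Huwe1 on the X chromosome (−0.91), Fbxw7 (0.77) and Usp36 (−0.48), and 3 of 10 corepressors, namely Rbbp7 (−1.41), Hdac1 (0.28) and Rbbp4 (0.24). Also called were Yaf2 (−0.86) and Pcgf6 (−0.32) of 10 MGA and PCGF6 partners, Sycp3 (−0.998) and Stk31 (−0.68) of 12 germline genes, Zbtb17 (0.47) of 12 coactivators and Cdkn1a (1.23) and Cdkn1c (−1.13) of 8 repressed genes. ESC markers moved in the same comparison: with the block edgeR called 5 of 8 as higher and 1 as lower, among them Esrrb (1.87), Tfcp2l1 (1.27), Nanog (0.77) and Tdgf1 (−0.98), and Tdgf1 was also called without it (adjusted p = 0.0306). The neural marker Nes (−0.88) and the fibroblast marker Thy1 (−0.61) were called as lower with the block, and the part of these markers in the results was not tested.

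In ΔCdk8 cells 0 members were called on induction. Myc went from 19.7, 64.4 and 18.6 to 17.7, 59.6 and 20.4 TPM in clones 8, 11 and 15, and Mycn from 45.4, 127 and 32.5 to 42.9, 106 and 29.8 TPM, so that the order of clones stayed the same for Mycn. With the clone as a block the log2 fold changes were −0.01 (SE 0.09) for Myc and −0.12 (SE 0.08) for Mycn, and edgeR called 0 of 10 members against 10.9% of 14129 genes. Without the block edgeR called 0 members and 0% of genes, with 0 members and 341 genes at an unadjusted p under 0.05, and DESeq2 called 0 members and 0.616% of genes. The member with the largest value was Mxd4, lower in all 3 clones at 0.820, 0.885 and 0.545 times its uninduced level (−0.40, SE 0.20 with the block, edgeR adjusted p = 0.229). Mxd3 stood at 1.42 times its uninduced level in clone 11, and Mnt at 0.763 times in clone 15. Mxd1 went to 0.900, 1.07 and 0.883 times its uninduced level, and Max to 0.847, 0.937 and 0.858 times. In the partner lists edgeR without the block called 0 genes, and the largest values were those of Rbbp7 (−0.64), Ndrg1 (−1.50), Ldha (−0.65), Huwe1 (−0.47), Lef1 (−2.63), Mlxipl (0.64), Ring1 (0.42), Tdrkh (0.50), Zbtb17 (0.24) and Bmyc (0.23). The clone as a block changed these calls. In that fit edgeR called Lef1 (−2.60, adjusted p = 5.18e-08) of 8 LIF and Wnt regulators, Ndrg1 (−1.53, adjusted p = 5.18e-07) and Cdkn1c (−0.51) of 8 repressed genes, and Ldha (−0.66) and Hk2 (−0.30) of 40 activated genes. It also called Rbbp7 (−0.64) of 10 corepressors, Huwe1 (−0.47) of 13 turnover genes, Mlxipl (0.65) of the 3 genes of the MLX arm, and Tdrkh (0.50) and Ddx4 (0.35) of 12 germline genes, beside 10.9% of all genes. Of the 8 ESC markers the same fit called Tfcp2l1 (0.51), Esrrb (0.40) and Klf4 (0.28) as higher and Tdgf1 (−0.59) as lower. The part of these markers in the results was not tested.

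The difference between the induction effects of both genotypes was tested as an interaction term fitted to the 12 libraries. The largest member value was that of Mxd1, −0.64 (SE 0.46) without and −0.62 (SE 0.20) with the number or clone as a block (edgeR adjusted p = 1.00 and 0.0951). With the block Mnt had −0.36 (SE 0.16, edgeR adjusted p = 0.207), and both genes had an unadjusted p under 0.05. The other 8 members had values between −0.37 and 0.12 with the block. Of the members 0 were called by edgeR without a block (0% of 14418 genes, 0 members and 564 genes at an unadjusted p under 0.05), 0 by edgeR with it (5.78% of genes) and 0 by DESeq2 (0.458% of genes). In the partner and target lists edgeR with the block called Fbxw7 (−0.78, SE 0.12, adjusted p = 0.00625) among 13 turnover genes and Rbbp7 (0.79, SE 0.09, adjusted p = 0.00217) among 10 corepressors. It also called Sycp3 (1.02) and Hormad1 (−0.91) among 12 germline genes, Tcf7 (0.48) and Stat3 (−0.40) among 8 LIF and Wnt regulators and Ccnd2 (1.40) among 40 genes activated by MYC, and 0 in the other lists. Of the cell type markers, edgeR with the block called the ESC marker Esrrb (−1.44, adjusted p = 0.0359) and the fibroblast marker Thy1 (0.96, adjusted p = 0.0168). The part of these markers in the results was not tested. Without the block edgeR called 0 genes of any list.

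**Figure D5:**
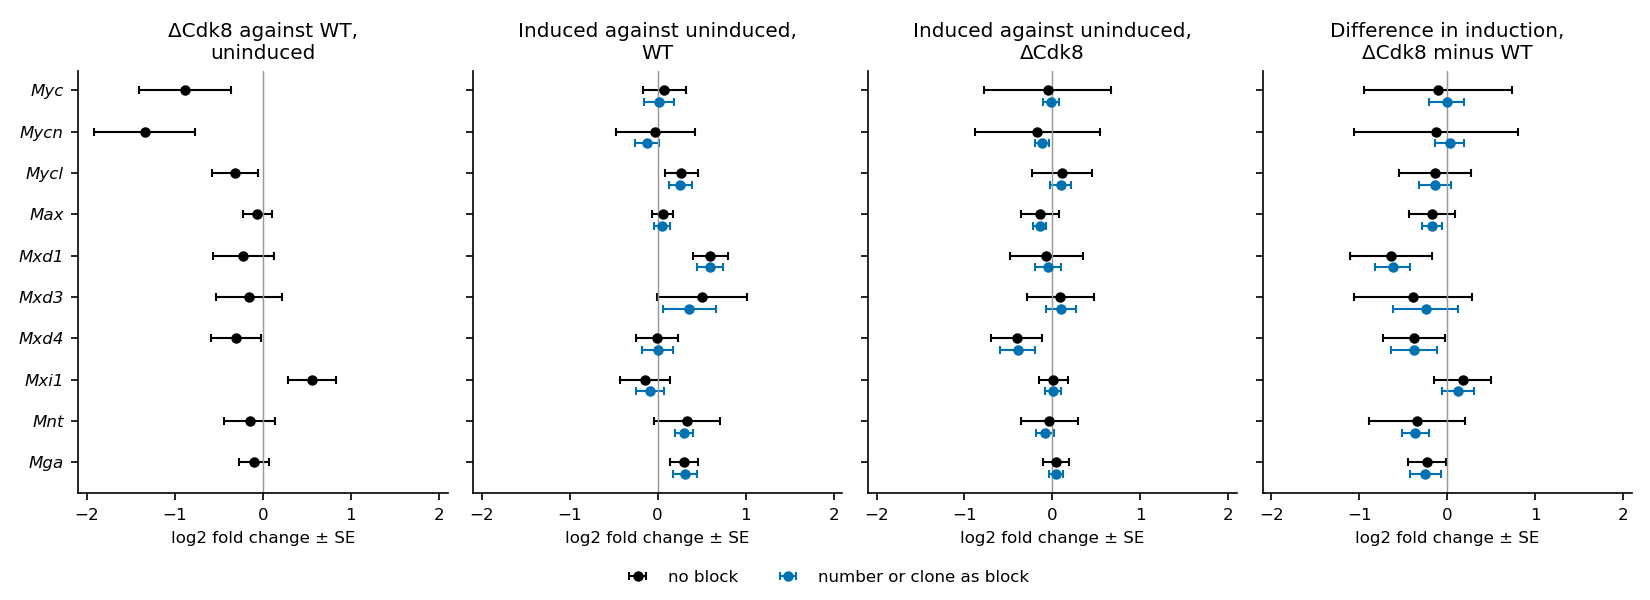
Log2 fold change ± SE of the 10 genes in the 4 comparisons from edgeR, without a block (black) and with the wild-type number or clone as a block (blue; no block exists between genotypes). Mycn (−1.34) and Myc (−0.88) are lowest between genotypes with wide errors, Mxd1 is highest on induction in wild type (0.60), and blocked errors are narrow around 0 in ΔCdk8 cells.

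Genes whose profile over the 12 libraries was most like that of Myc or Mycn were found as a description, by the root mean square difference of centred log2(TPM + 1) values among genes with a mean of at least 5 TPM and a standard deviation over the libraries at least 0.5 times that of Myc or Mycn. For Myc, among 3503 genes, they were Rarg, a retinoic acid receptor (0.18), Epha2, an ephrin receptor (0.21), and 4931406P16Rik (0.24). Rarg had 145 to 170 TPM in uninduced wild type and 42.5, 142 and 60.5 TPM in clones 8, 11 and 15, and Epha2 had 72.4 to 82.1 TPM and 27.4, 71.5 and 33.2 TPM. For Mycn, among 2165 genes, they were Armc6 (0.26), Zscan10, a pluripotency factor (0.29), and Sssca1 (0.33). Zscan10 had 68.4, 174 and 205 TPM in wild type and 41.3, 124 and 40.7 TPM in the clones, the low value of wild-type number 1 included. Mycn ranked 57th for Myc, and Myc ranked 14th for Mycn, with a difference of 0.37.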

How the data were processed

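Polyadenylated RNA of 12 libraries was sequenced by the authors with stranded mRNA libraries and aligned to Ensembl GRCm38 in CLC Genomics Workbench 11 without adapter trimming. Whether the counting used strand is not given in the sources used here. The authors deposited raw read counts per gene and TPM for each library separately, and each deposited TPM was equal to the gene's exon reads divided by its exon length, scaled within the library. The deposited RPKM and fraction columns were not used. Total exon reads were tested in R 4.3.3 with edgeR 4.0.16 (TMM scaling; genes kept by filterByExpr at 10 reads, 15 in total). The quasi-likelihood F test was two-sided, and p-values were adjusted by Benjamini-Hochberg over every gene tested, with a threshold of 0.05. Standard errors are the log2 fold change over the square root of F. Summaries used Python 3.11.15, numpy 2.4.6, pandas 2.3.3, scipy 1.17.1 and matplotlib 3.10.9. Ratios over gene lists and regions used a pseudocount of 0.1 TPM and genes with at least 1 TPM in uninduced wild type.

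Alternatives were DESeq2 1.42.0, its size factors in edgeR, no low-count filter, total gene reads, unique exon reads, the study's threshold (adjusted p under 0.01 and fold change above 2), all 12 libraries in 1 fit, each replicate left out, and the number or clone as a block. Comparisons between clones, between wild-type numbers and with neighbouring genes were added after seeing the data. Deviations from group means correlated at 0.613 to 0.717 between wild-type libraries of the same number (−0.671 to 0.440 for different numbers) and at 0.876 to 0.922 within clones, so the titles' numbers were taken as pairs. Named genes were all 10 members and, from each list, those past the threshold (at most 4 by size) or else the largest. The members and lists were chosen with earlier results of these data known, and the list genes called by DESeq2 or with the block were named by the same rule. The steps were also run on simulated counts that held no shared clone or number effects, a simpler setting than these data.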

Additional observations from a re-analysis of the deposited data

How the results depend on the processing

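The count of members called moved in 2 comparisons. In uninduced cells it was 0 in the fit as reported and 0 to 2 with 1 library left out, the 2 being Myc and Mycn without clone 11. On induction in wild type it was 0 as reported, 1 with DESeq2, 1 with the replicate number as a block and 0 to 2 with 1 number left out. In ΔCdk8 cells and for the interaction the block called 0 members. Of 440 alternative values 407 kept direction and side of the threshold, 6 newly passed it, 0 newly failed and 27 changed sign, the largest of these at 0.13 in size, and none of the 27 was a called value. The cause was not tested. The log2 fold change of Max between genotypes was 0.00710 with total gene reads. That of Mxi1 on induction in ΔCdk8 cells was −0.00454 with DESeq2, −0.00454 with its size factors, −0.00400 with total gene reads and −0.00503 with all 12 libraries in 1 fit. With the block the interaction of Mycn was 0.030. With 1 number or clone left out (1 library in uninduced cells, both of its libraries in the other comparisons), log2 fold changes in uninduced cells ranged from −0.23 to 0.047 for Max, −0.42 to 0.042 for Mxd1, −0.49 to 0.12 for Mxd3, −0.39 to 0.00452 for Mnt and −0.21 to 0.076 for Mga. On induction in wild type they ranged from −0.13 to 0.25 for Myc, −0.20 to 0.048 for Mycn, −0.00839 to 0.13 for Max, −0.059 to 0.037 for Mxd4 and −0.27 to 0.068 for Mxi1. On induction in ΔCdk8 cells they ranged from −0.12 to 0.026 for Myc, −0.040 to 0.23 for Mycl, −0.10 to 0.23 for Mxd3, −0.038 to 0.019 for Mxi1, −0.23 to 0.051 for Mnt and −0.11 to 0.12 for Mga. For the interaction they ranged from −0.31 to 0.080 for Myc, −0.23 to 0.027 for Mycn, −0.27 to 0.000941 for Mycl and −0.059 to 0.30 for Mxi1. Precision from depth was lowest for Mxd4, Mxd3 and Mxd1, the members with the fewest reads.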
